A study of Mus musculus with 13 samples.

Results

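The interferon-stimulated genes examined here are 55 protein-coding mouse genes that were listed by name because interferon is known to induce them, out of 35906 genes measured in 13 RNA-seq libraries of CD4 single-positive (CD4SP) thymocytes. They were ordered by what their products do: 8 PYHIN genes, 5 immunity-related GTPases, 8 guanylate-binding proteins, 3 interferon signal factors, 3 genes of ISG15 conjugation and removal, 4 RNA sensors, 5 genes of the OAS family, 10 other antiviral effectors, 4 PARP and nuclear body genes and 5 other interferon-inducible genes. All 55 were found in the annotation. They passed the filter on low counts in every comparison, where it was applied over all libraries of the fit. No sample was treated with interferon or lacked its receptor, so the name rests on the list and not on these libraries.

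The libraries came from M2 cells, the CD69- MHCI+ and most mature CD4SP subset, sorted from the thymus of mice with an Lm54 TCR transgene on a Rag1-/- background, so that all T cells in all 4 groups carried 1 receptor, specific for the listeriolysin O (LLO) epitope. Control mice were Ctsl fl/fl (WT), with floxed alleles of the gene for the lysosomal protease cathepsin L, and CtslΔTEC mice lacked it in thymic epithelial cells through a Cre driven by Foxn1. Cells of 4 WT and 5 CtslΔTEC mice were frozen straight after sorting. Cells of 2 further WT and 2 further CtslΔTEC mice were first cultured for 4 h in serum-free medium with soluble anti-CD28 at 250 ng/ml and plate-bound LLO:Iab monomer at 1 μg/ml. Each library was 1 mouse, and no cells were cultured without stimulus.

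Type I interferon binds the receptor pair IFNAR1 and IFNAR2, whose kinases JAK1 and TYK2 phosphorylate STAT proteins, among them STAT2, which joins IRF9 in the factor ISGF3; this binds interferon-stimulated response elements (ISRE). Interferon-γ acts through IFNGR1 and IFNGR2 and through STAT dimers, which bind γ-activated sites (GAS). In the thymic medulla, epithelial cells are known to make interferon without infection, and thymocytes that mature there are known to carry interferon-induced transcripts.

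Promoters show what the induced genes share in sequence. Of the 55 genes, 40 had promoter windows of 300 bases, from 250 before to 50 after a transcription start, in RefSeq for GRCm38.p6. On either strand, an ISRE-like GAAANNGAAA lay in a window of 24 of these 40 genes, or 60%, against 3.99% of all 27025 genes with a window. A GAS-like TTCNNNGAA lay in 9 of the 40, or 22.5%, against 9.55% of all genes, and the matches of both kinds overlapped only in Bst2. Of 34 ISRE-like matches, 23 began within 100 bases before the start. Gbp5, Ifi214, Ifi213 and Gbp3 are shown because, among genes with a window that passed the test between unstimulated genotypes, they differed most. Ifi206 and Ifi208, which differed most among genes that passed between stimulated genotypes, Igtp, Isg15 and Isg20 were added after their values were seen. Sequences run 5′ to 3′ on the gene's strand and end at the last base before the start. Capitals mark every match to either motif.
Gbp5, chr3:142496684-142496933, plus strand: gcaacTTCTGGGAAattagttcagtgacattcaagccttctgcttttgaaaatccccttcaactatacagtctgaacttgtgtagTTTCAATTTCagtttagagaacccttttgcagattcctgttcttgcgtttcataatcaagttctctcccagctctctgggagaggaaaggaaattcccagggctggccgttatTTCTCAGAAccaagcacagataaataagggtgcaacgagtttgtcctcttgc
Ifi214, chr1:173535958-173536057, minus strand: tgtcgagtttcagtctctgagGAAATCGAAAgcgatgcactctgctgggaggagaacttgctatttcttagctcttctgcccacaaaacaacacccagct
Ifi213, chr1:173599273-173599372, minus strand: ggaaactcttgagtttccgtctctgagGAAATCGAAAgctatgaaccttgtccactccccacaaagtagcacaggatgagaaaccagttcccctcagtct
Gbp3, chr3:142559944-142560043, plus strand: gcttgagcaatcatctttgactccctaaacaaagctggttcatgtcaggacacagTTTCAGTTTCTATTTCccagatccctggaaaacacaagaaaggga
Ifi206, chr1:173491319-173491418, minus strand: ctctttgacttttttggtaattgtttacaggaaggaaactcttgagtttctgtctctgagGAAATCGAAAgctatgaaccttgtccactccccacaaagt
Ifi208, chr1:173673565-173673664, plus strand: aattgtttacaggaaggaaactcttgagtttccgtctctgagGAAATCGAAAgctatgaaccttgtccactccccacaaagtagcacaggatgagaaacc
Igtp, chr11:58199456-58199555, plus strand: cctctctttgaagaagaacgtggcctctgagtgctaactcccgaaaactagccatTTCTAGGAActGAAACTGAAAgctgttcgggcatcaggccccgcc
Isg15, chr4:156200819-156200918, minus strand: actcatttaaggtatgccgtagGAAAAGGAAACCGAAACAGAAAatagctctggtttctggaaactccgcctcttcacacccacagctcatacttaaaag
Isg20, chr7:78913324-78913423, plus strand: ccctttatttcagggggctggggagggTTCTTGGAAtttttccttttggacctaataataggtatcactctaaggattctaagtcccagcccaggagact

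Isg15 held 3 overlapping ISRE-like matches and Gbp3 held 2, Igtp had a GAS-like match beside its ISRE-like match, and Isg20 had a GAS-like match alone. The 8 PYHIN genes, whose products sense nucleic acids or bind chromatin, lie within 474 kb at chr1:173468485-173942672. The same ISRE-like letters, GAAATCGAAA, stood in windows of 6 of them (Ifi203, Ifi206, Ifi208, Ifi213, Ifi214 and Mndal) and of 16 genes in all. Windows of Ifi206 and Ifi208 shared an identical run of 182 bases, and each of them shared a run of 135 bases with Ifi213. Paralogs this alike can share reads, which kallisto divides between them, so sums over families are given beside single genes.

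The 13 libraries held 8085463 to 39127833 estimated counts. Those of stimulated WT mouse 5, at 8085463, and stimulated CtslΔTEC mouse 6, at 11792192, were the shallowest. Cd4 stood at 745 to 1156 CPM (a count corrected for sequencing depth) and Cd3e at 431 to 679 CPM, whereas Foxn1 reached at most 0.0777 CPM. Of 10 thymic epithelial markers 5 stayed under 1 CPM, and the list, mostly Ly75 (35.5 to 131 CPM), summed to 70.8 to 147 CPM in unstimulated WT and 61.5 to 108 CPM in unstimulated CtslΔTEC mice. The deletion in epithelium was not checked in these thymocyte libraries. Of the defining markers of plasmacytoid dendritic cells, which make much interferon, Klk1 and Cd300c were at 0 in every library and Siglech reached 0.361 CPM, and 4 of the 9 listed markers stayed under 1 CPM. Others of that list were present, with Pacsin1 at 96.0 to 158 CPM, Tcf4 at 3.22 to 8.03 CPM and Bst2, which is also 1 of the 55 genes. Ccr9, a chemokine receptor that thymocytes also express, stood at 77.9 to 108 CPM in unstimulated WT and 162 to 204 CPM in unstimulated CtslΔTEC mice. The list, mostly Ccr9 and Pacsin1, summed to 214 to 265 CPM in unstimulated WT and 283 to 348 CPM in unstimulated CtslΔTEC mice, without overlap, and 1 of 5 markers tested was higher. Ms4a1 (B cells) stayed at or below 0.278 CPM and Ncr1 (NK cells) at 0, and the macrophage genes Mpeg1 and C1qa reached 2.92 and 2.14 CPM in unstimulated CtslΔTEC mice and 0.701 and 0.596 CPM in unstimulated WT mice. The whole myeloid list summed to 12.6 to 19.6 CPM in WT and 12.2 to 20.6 CPM in CtslΔTEC mice before stimulation, which overlapped, with 3 of 9 tested higher and 1 lower. A list of 12 late maturation markers summed to 5353 to 5948 CPM in unstimulated WT and 3913 to 4466 CPM in unstimulated CtslΔTEC mice, with 9 markers lower and 2 higher. Double-positive stage markers summed to 368 to 459 CPM and 635 to 774 CPM, and 7 of 9 tested were higher in CtslΔTEC mice. Y-linked transcripts exceeded 100 CPM in 5 of 5 unstimulated CtslΔTEC and 1 of 4 unstimulated WT mice (mouse 3), and in 1 of 2 mice of each stimulated group. In bulk libraries, fewer cells of a type and less RNA per cell cannot be told apart.

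In unstimulated M2 cells of both genotypes, interferon-stimulated genes were transcribed at levels that spanned a wide range. Summed over the 55 genes, CPM lay between 3657 and 4231 in WT and between 3761 and 4301 in CtslΔTEC mice, so the ranges overlapped. Per length, in TPM (which scales by transcript length and library size), the nuclear body gene Sp100 stood highest with a mean of 714 TPM in WT and 713 TPM in CtslΔTEC mice. It was followed by Mndal at 215 TPM in WT mice, Ifi27l2a at 128 TPM, Ifi47 at 126 TPM and Ifi203 at 122 TPM. Genes usually used to read out acute interferon responses stood far lower, with WT means of 34.1 TPM for the ubiquitin-like modifier Isg15, 10.8 TPM for Ifit1, 3.23 TPM for Ifit3 and 1.46 TPM for Rsad2. Oas1a, Mx1, Iigp1, Ifi204 and Ifi44 closed the order at 1.05 TPM or less in WT mice.

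**Figure D1:**
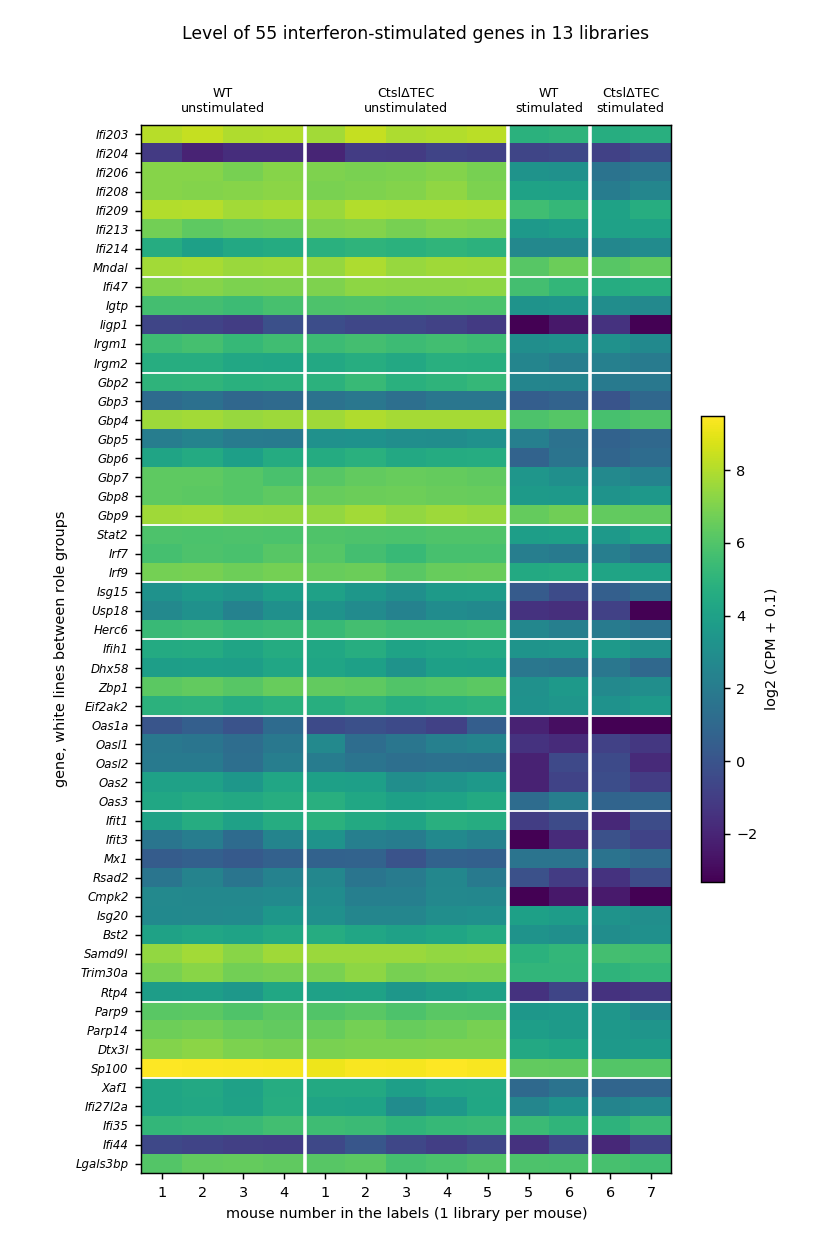
Level of the 55 genes in the 13 libraries as log2 (CPM + 0.1), with 1 column per library (mouse number as labelled) and rows ordered by role. Sp100 and most PYHIN genes stood high in all 9 unstimulated libraries, and most rows darken in the 4 stimulated ones, apart from Mx1, Isg20, Ifi204, Ifi35, Ifi44 and Lgals3bp.

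The first comparison asked whether interferon-stimulated genes differed in unstimulated M2 cells between WT mice and mice without cathepsin L in thymic epithelium. Few of them differed: 6 were higher in CtslΔTEC mice and 1 was lower (edgeR quasi-likelihood test with Benjamini-Hochberg adjustment, adjusted p under 0.1 here and throughout). That is 12.7% of the 55, while 14.8% of all 13152 genes tested passed, 6.42% higher and 8.36% lower. Without CtslΔTEC mouse 1 the count was 11, when 18.1% of all genes passed. The median log2 fold change of CtslΔTEC over WT was -0.00 over the 55 and 0.01 over all genes, and 28 had a negative and 27 a positive sign.

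Those that were higher belonged to the GTPase families and the PYHIN cluster. Gbp5, which promotes inflammasome assembly, stood at 4.26, 5.15, 3.98 and 3.80 CPM in the 4 WT mice and at 8.90, 9.23, 8.08, 7.64 and 8.98 CPM in the 5 CtslΔTEC mice. Every CtslΔTEC mouse lay above every WT mouse, and the difference was 1.00 ± 0.12 on the log2 scale (SE, adjusted p = 0.00029). It passed in all 24 alternative fits.

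The neighbours Ifi213 and Ifi214 moved alike. Ifi213 stood at 110, 80.4, 90.4 and 97 CPM in WT mice and at 131, 140, 117, 136 and 123 CPM in CtslΔTEC mice. Ifi214 stood at 24.3, 15.4, 21.2 and 23.9 CPM against 28.2, 32.0, 29.0, 33.0 and 29.5 CPM. Neither gene overlapped between the groups, and the differences were 0.46 ± 0.09 for Ifi213 (log2, SE, adjusted p = 0.0072) and 0.52 ± 0.12 for Ifi214 (adjusted p = 0.018). The other PYHIN genes did not pass, and the summed family differed by 0.00 ± 0.08 (adjusted p = 0.98).

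Among the guanylate-binding proteins, which attack membranes around intracellular pathogens, 3 of 8 were higher. Beside Gbp5, Gbp8 stood at 80.1, 77.1, 68.2 and 79.0 CPM in WT and at 91.3, 99.3, 103, 94.5 and 91.5 CPM in CtslΔTEC mice, without overlap (0.34 ± 0.07, adjusted p = 0.0072). The annotated spans of Gbp8, Gbp4 and Gbp9 overlap, and Gbp8 did not pass when only protein-coding transcripts were summed. Gbp3, at 1.86 to 2.59 CPM in WT and 2.46 to 3.29 CPM in CtslΔTEC mice, overlapped and passed narrowly (0.46 ± 0.16, adjusted p = 0.097). It did not pass in 13 of 24 alternatives, among them fits without WT mouse 1, 3 or 4 or without CtslΔTEC mouse 2, 4 or 5, where the difference was between 0.39 and 0.45. The summed family did not pass (0.15 ± 0.07, adjusted p = 0.25).

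Igtp, an immunity-related GTPase, stood at 51.0, 51.2, 44.2 and 53.9 CPM in WT mice and at 59.4, 62.0, 57.2, 60.3 and 58.3 CPM in CtslΔTEC mice. All CtslΔTEC mice lay above all WT mice by 0.25 ± 0.07 (log2, adjusted p = 0.037), or 0.19 without WT mouse 3, when the gene no longer passed. Its neighbour Irgm2, whose annotated span overlaps that of Igtp, and Irgm1 and Ifi47 did not pass.

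Irf9, the DNA-binding subunit of ISGF3, was the member that was lower. It stood at 114, 116, 99.7 and 111 CPM in WT mice and at 92.1, 96.7, 74.3, 92.5 and 93.3 CPM in CtslΔTEC mice, without overlap. The difference was -0.29 ± 0.08 (log2, adjusted p = 0.040), and -0.27 without WT mouse 2, when it no longer passed. Its partner Stat2 differed by 0.06 ± 0.05 and Irf7, which amplifies the response, by -0.15 ± 0.14, and neither passed.

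None of the 3 genes of ISG15 conjugation and removal, the 4 RNA sensors, the 5 OAS genes, the 10 other antiviral effectors, the 4 PARP and nuclear body genes or the 5 other interferon-inducible genes passed between unstimulated genotypes. Sp100, the most abundant, stood at 714, 680, 665 and 643 CPM in WT and at 582, 665, 629, 720 and 666 CPM in CtslΔTEC mice. With the level of Y-linked transcripts as a covariate, 3 of the 7 genes passed (Gbp5, Gbp8 and Igtp) and Irf9, Ifi213, Ifi214 and Gbp3 did not. Under that covariate 3.28% of all genes passed, against 14.8% without it. Ifi213 (0.52), Ifi214 (0.52) and Gbp3 (0.69) then differed by about as much as before or more, with larger SE, while Irf9 stood at -0.14. Genotype was largely aligned with Y-linked expression in these 9 mice. Within the 6 libraries of the second file date, 9 members passed, 8 higher and 1 lower, and 14.7% of all genes. All called members but Irf9 were higher while late maturation markers were mostly lower; the part of the maturation stage in these differences was not tested.

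**Figure D2:**
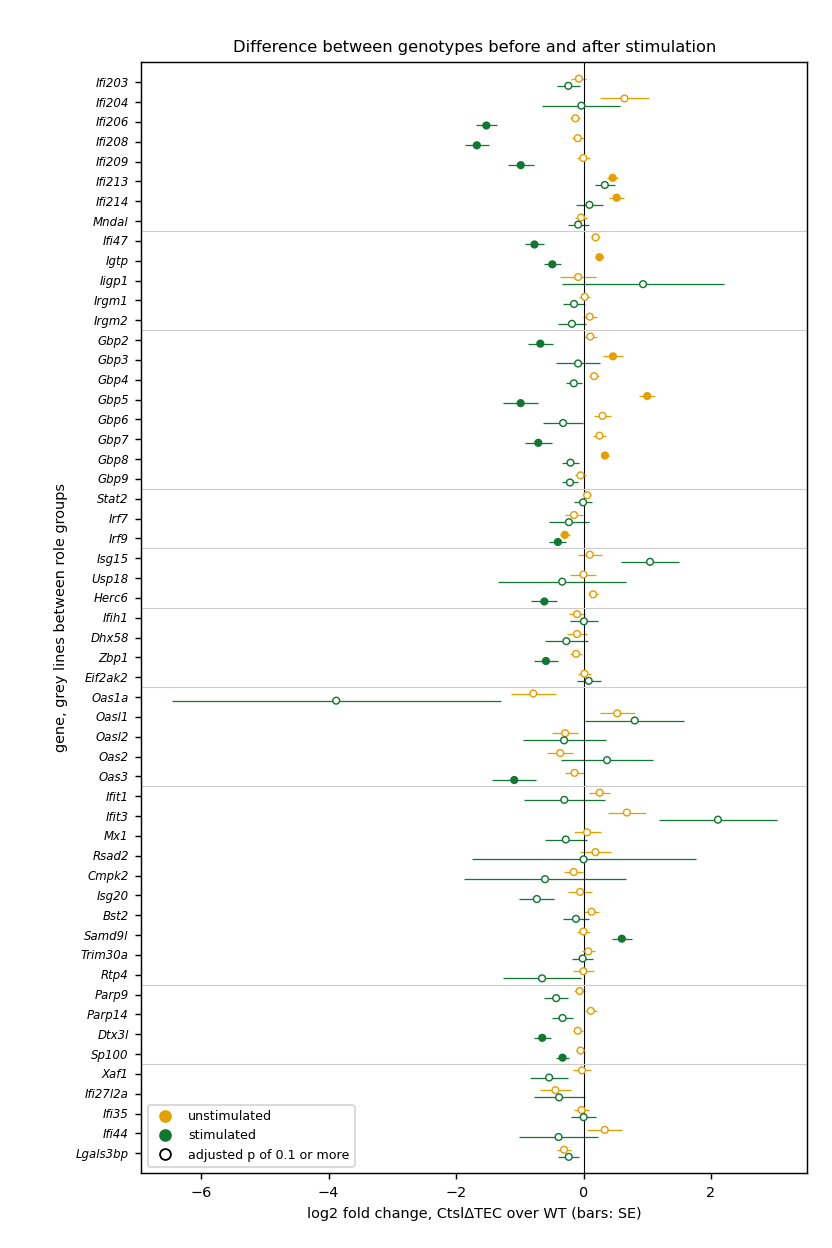
Log2 fold change of CtslΔTEC over WT for each gene with its SE, before (orange) and after (green) stimulation, with filled points for adjusted p under 0.1. Orange points cluster around 0 with Gbp5 at 1.00, whereas green points lie mostly to the left, with Ifi208 at -1.68 and Ifi206 at -1.53. The green point of Oas1a, which had 0 counts in both stimulated CtslΔTEC libraries, depends on the prior count of the fit.

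Unstimulated mice also differed from each other within a genotype. For the 50 members with at least 2 CPM on average, the median SD around the genotype mean was 0.183 on the log2 scale, against 0.142 for 10205 genes at that level. Role group means spread most over the mice in the OAS family (0.745 from lowest to highest), followed by the other interferon-inducible genes (0.655), which ran from -0.38 in CtslΔTEC mouse 3 to 0.27 in CtslΔTEC mouse 2. The 5 OAS genes, which make an activator of RNase L or resemble those that do, deviated on average by -0.39 in WT mouse 3 and -0.34 in CtslΔTEC mouse 3, and by 0.35 in WT mouse 4 and 0.36 in CtslΔTEC mouse 1. The same mice stood lowest and highest for ISG15 conjugation and removal (-0.28 and -0.36, 0.22 and 0.23) and for the other antiviral effectors (-0.26 and -0.31, 0.27 and 0.26). Means of the PARP and nuclear body genes spread over no more than 0.24 across the 9 mice. Libraries of the mice on the low side were the shallowest of their genotypes, at 26590918 and 25692380 counts, and libraries of the high side held 36035983 and 38081146. WT mouse 4 and CtslΔTEC mice 1 and 3 shared the first file date, and WT mouse 3 had the second. The parts of depth and file date in this pattern were not tested.

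**Figure D3:**
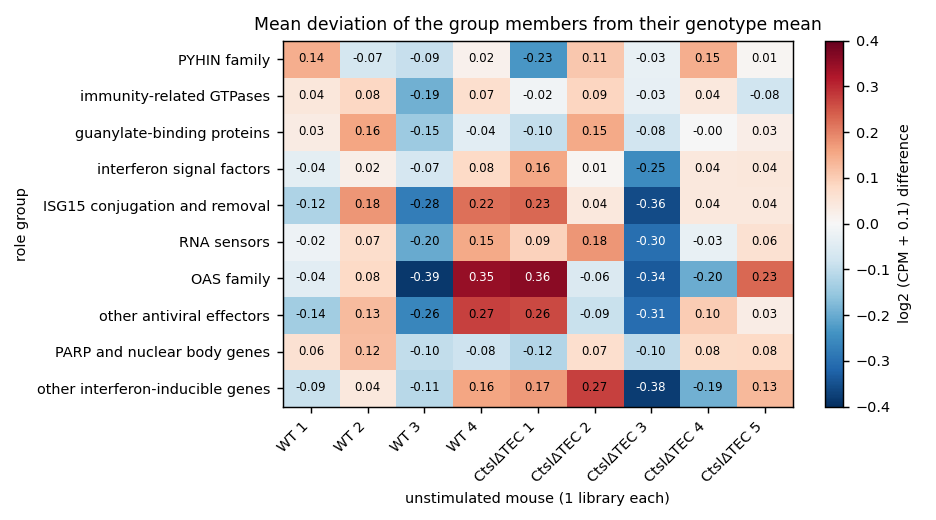
Mean deviation of each role group from its genotype mean, in log2 (CPM + 0.1), for the 9 unstimulated mice. The OAS family runs from -0.39 in WT mouse 3 to 0.36 in CtslΔTEC mouse 1, while PARP and nuclear body genes stay between -0.12 and 0.12.

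The second question was how the genes responded when the Lm54 receptor and CD28 were engaged for 4 h. In WT cells 48 of 55 were lower after stimulation and 3 were higher, while 67.7% of 14241 genes passed, 34.8% lower and 32.9% higher. In CtslΔTEC cells 50 were lower and 1 was higher, against 71.2% of all genes, 38.2% lower and 32.9% higher. Medians over the members were -2.62 in WT and -2.99 in CtslΔTEC cells on the log2 scale, or -2.93 with Oas1a at its bound in CtslΔTEC cells. Medians over all genes were 0.01 and -0.06, and scaling by library totals alone moved the all-gene median by -0.14 in CtslΔTEC cells. Stimulated libraries also had a file date of their own, so stimulus, culture and file date cannot be told apart. The 11 activation genes summed to 362 to 829 CPM before and 12555 to 15631 CPM after stimulation. In WT cells late maturation markers went from 5353 to 5948 CPM to 1316 to 1772 CPM, double-positive stage markers from 368 to 459 CPM to 70.0 to 75.2 CPM and erythroid markers from at most 92.9 CPM to 9.47 to 11.0 CPM. Semimature markers went from 424 to 589 CPM to 5430 to 5664 CPM and regulatory T cell markers from 32.5 to 43.5 CPM to 790 to 813 CPM. Cd69 and Tnfrsf9 of the semimature list and Il2ra of the regulatory T cell list are also among the activation genes. The part of these lists in the responses of the 55 genes was not tested.

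Summed over the 55 genes, stimulated libraries held 869 and 893 CPM in WT and 725 and 758 CPM in CtslΔTEC cells, below all 9 unstimulated libraries. Every role group contained genes that fell, with medians from -3.80 for the OAS family and -3.79 for ISG15 conjugation and removal to -1.94 for RNA sensors and -0.44 for the other interferon-inducible genes in WT cells.

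The steepest falls were in antiviral effectors. Cmpk2, a mitochondrial nucleotide kinase, stood at 6.21 to 6.80 CPM in the unstimulated WT and 4.50 to 7.31 CPM in the unstimulated CtslΔTEC mice. After stimulation 2 counts were left in the WT libraries together and 1 count in the CtslΔTEC libraries. By pooled counts that was 107-fold lower in WT (exact 95% interval from counting alone, 29.6 to 886) and 157-fold lower in CtslΔTEC cells (28.1 to 6207). Oas1a fell 22.7-fold in WT cells by the same measure (6.20 to 189) and was at 0 counts in both stimulated CtslΔTEC libraries, at least 7.05-fold lower against a floor of 3 counts over the group.

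Ifit1, which binds foreign RNA caps, stood at 15.9 to 24.4 CPM in unstimulated WT and 17.9 to 29.2 CPM in unstimulated CtslΔTEC mice. After stimulation it stood at 0.397 and 0.660 CPM in WT and at 0.181 and 0.696 CPM in CtslΔTEC cells, changes of -5.09 ± 0.38 and -5.64 ± 0.39 (log2). Usp18, which removes ISG15 and restrains the receptor, fell from 4.94 to 8.87 CPM in WT mice to 0.265 and 0.233 CPM. In CtslΔTEC mice it fell from 4.95 to 9.51 CPM to 0.451 and 0 CPM, and the changes were -4.87 ± 0.57 and -5.20 ± 0.59. With 2 and 6 Usp18 counts in the stimulated WT and 5 and 0 in the stimulated CtslΔTEC libraries these sizes are uncertain, and limma on log2(TPM + 1) gave -2.77 and -2.69. Rtp4, Oas2 and Ifit3 changed by -4.98, -5.23 and -4.65 on the log2 scale in WT cells. Few counts were left there too, 1 and 13 for Oas2 and 0 and 5 for Ifit3, and the change ranged from -6.84 to -2.64 for Oas2 and from -9.71 to -1.93 for Ifit3 over the alternatives, the lowest values without WT mouse 6. Isg15 stood at 9.19 to 14.5 CPM in unstimulated WT mice and at 1.19 and 0.660 CPM after stimulation (-3.79 ± 0.37).

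Signal factors fell with their targets. Irf7 stood at 52.6 to 71.5 CPM before and at 4.37 and 3.81 CPM after stimulation of WT cells, and at 40.2 to 70.0 CPM before and 4.33 and 2.66 CPM after in CtslΔTEC cells. Changes were -3.91 ± 0.25 and -3.99 ± 0.25. Stat2 changed by -1.96 and -2.02 and Irf9 by -2.26 and -2.37 in WT and CtslΔTEC cells. Sp100 kept 12.3% of its unstimulated mean CPM in WT cells and 10.2% in CtslΔTEC cells, while Mndal kept 40.9% and 39.9% and Gbp9 50.4% and 45.1%. The tetherin gene Bst2 (-1.09 ± 0.18 and -1.33 ± 0.17) and the RNA sensor Ifih1 (-1.11 ± 0.19 in WT cells) were among those that fell least. Ifih1 did not pass in 1 of 18 alternatives in WT cells (range -1.20 to -0.66) and in 2 of 19 in CtslΔTEC cells (range -1.30 to -0.52). The RNA-dependent kinase gene Eif2ak2 changed by -1.51 in WT and -1.44 in CtslΔTEC cells, Zbp1 by -2.92 and -3.39, Xaf1 by -2.98 and -3.49 and Parp14 by -2.83 and -3.27. Oasl2 changed by -2.91 and -2.93, Irgm1 by -2.44 and -2.60, Ifi203 by -3.18 and -3.35 and Ifi27l2a by -1.36 and -1.30. Few Oasl2 counts were left, 1 and 16 in stimulated WT and 7 and 3 in stimulated CtslΔTEC libraries. Over the alternatives its change ranged from -4.73 to -1.24 in WT and from -8.48 to -1.32 in CtslΔTEC cells.

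Few members went the other way. Isg20, a nuclease that degrades RNA, stood at 6.61, 6.49, 6.91 and 10.7 CPM before and at 15.5 and 13.6 CPM after stimulation of WT cells, a rise of 0.91 ± 0.23 (log2, adjusted p = 0.0027). In CtslΔTEC cells it stood at 5.80 to 8.68 CPM before and at 9.48 and 7.97 CPM after (0.23 ± 0.23, adjusted p = 0.39), and the difference between the 2 responses did not pass (adjusted p = 0.33). Mx1, known to be defective in common laboratory strains, rose from 1.15 to 1.50 CPM in WT mice to 2.91 and 2.99 CPM (1.14 ± 0.28) and in CtslΔTEC cells from 0.856 to 1.57 CPM to 2.89 and 2.02 CPM (0.81 ± 0.27). When protein-coding transcripts alone were summed the Mx1 value was 8.29 in WT and -1.47 in CtslΔTEC cells, and in CtslΔTEC cells the gene did not pass without mouse 6 (0.53). Ifi204 rose in WT cells at levels under 1 CPM. Ifi35 (-0.14 and -0.10) and Ifi44 (-0.05 and -0.77) did not pass in either genotype. Of the 24 genes with an ISRE-like match the median response was -2.46 in WT cells, against -2.64 in the 16 genes without one.

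**Figure D4:**
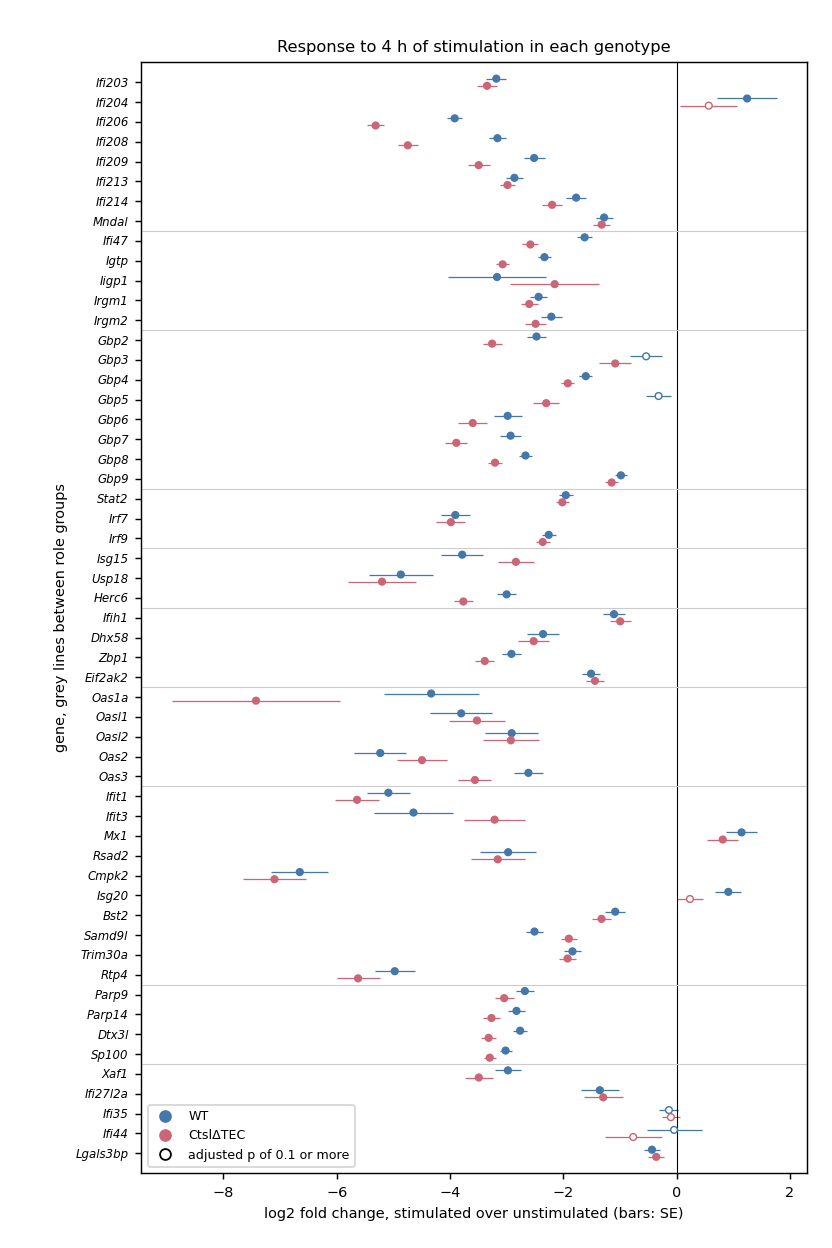
Log2 fold change of stimulated over unstimulated cells for each gene with its SE, in WT (blue) and CtslΔTEC (red), with open points for adjusted p of 0.1 or more. Most points lie between -2 and -5, Mx1 lies right of 0 in both genotypes, and red Gbp5 (-2.30) stands apart from blue Gbp5 (-0.32). Points for Cmpk2, Oas1a and Iigp1 rest on at most 3 counts per stimulated group and depend on the prior count.

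The third question was whether stimulated cells differed between genotypes. The test shared its estimate of the spread between mice with the unstimulated groups. With 2 mice on each side, 14 members were lower and 1 was higher in CtslΔTEC cells. That is 27.3% of the 55, against 13.3% of all 14241 genes tested, and 25.5% against 10.6% for genes that were lower (1.82% against 2.77% for higher). The median was -0.28 over the members and -0.05 over all genes, with 44 negative and 11 positive signs. Leaving out a mouse moved the count and mostly also the share of all genes called: 8 members passed without WT mouse 5 (6.43% of all genes), 10 without WT mouse 6 (14.9%), 9 without CtslΔTEC mouse 6 (6.31%) and 8 without CtslΔTEC mouse 7 (8.34%). The share, median and signs above rest on all 55, which passed the filter over 13 libraries, some with few counts after stimulation. With the 4 stimulated libraries fitted alone 6 of the 42 members then tested passed, and 9.58% of all genes. The median was then -0.22 over the 42 and 0.00 over all genes. In the 4-group model 5 genes (Dtx3l, Ifi206, Ifi208, Ifi209 and Ifi47) passed whichever mouse was left out. Myeloid markers summed to 10.9 to 25.6 CPM in stimulated WT and 8.67 to 9.48 CPM in stimulated CtslΔTEC cells, and 7 of 12 late maturation markers were lower and 1 was higher. Double-positive stage markers summed to 70.0 to 75.2 CPM in stimulated WT and 104 to 109 CPM in stimulated CtslΔTEC cells, plasmacytoid markers (mostly Ccr9 and Pacsin1, 1 of 5 tested higher) to 217 to 316 and 383 to 480 CPM, and activation genes to 12555 to 14528 and 15592 to 15631 CPM, each without overlap. Semimature markers (5430 to 5664 and 5748 to 6064 CPM) and regulatory T cell markers (790 to 813 and 840 to 870 CPM) did not overlap either. The same held for thymic epithelial markers (70.6 to 74.5 and 58.1 to 62.8 CPM) and B cell markers (0.927 to 1.48 and 1.58 to 1.72 CPM). The part of these lists in the differences was not tested.

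Of the PYHIN genes 3 were lower. Ifi206 stood at 9.53 and 8.74 CPM in stimulated WT and at 2.80 and 3.41 CPM in stimulated CtslΔTEC cells, a difference of -1.53 ± 0.17 (log2, adjusted p = 0.00012). Ifi208 stood at 16.5 and 15.8 CPM against 4.06 and 5.88 CPM (-1.68 ± 0.19, adjusted p = 0.00014). Before stimulation both genes overlapped between genotypes, at 118 to 145 and 115 to 136 CPM for Ifi206 and at 138 to 153 and 120 to 166 CPM for Ifi208.

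Ifi209 stood at 47.5 and 36.9 CPM against 16.6 and 25.4 CPM (-0.99 ± 0.20, adjusted p = 0.0071). Neighbours in the same cluster did not pass: Ifi213 stood at 11.5 and 14 CPM in WT and at 16.2 and 16.4 CPM in CtslΔTEC cells (0.33 ± 0.16, adjusted p = 0.22), and Ifi203 at 28.9 and 32.3 CPM in WT and at 25.0 and 27.0 CPM in CtslΔTEC cells (-0.24 ± 0.18). The family sum differed by -0.35 ± 0.13 and did not pass (adjusted p = 0.12). The promoter stretches that Ifi206 and Ifi208 share with Ifi213 are described with the sequences above.

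Among GTPases, Ifi47 stood at 51.2 and 35.8 CPM in stimulated WT and at 24.6 and 25.7 CPM in stimulated CtslΔTEC cells (-0.77 ± 0.15, adjusted p = 0.0061). Igtp stood at 9.40 and 10.3 CPM against 7.76 and 6.45 CPM (-0.49 ± 0.13, adjusted p = 0.034), and did not pass without WT mouse 6 (-0.42) or CtslΔTEC mouse 7 (-0.36). The summed immunity-related GTPases differed by -0.58 ± 0.13 (adjusted p = 0.010), the only family of 4 whose sum passed. Ifi47 made up most of this sum, which was 74.3 and 59.3 CPM in WT and 46.2 and 42.7 CPM in CtslΔTEC cells, and Irgm1, Irgm2 and Iigp1 did not pass.

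Gbp5 stood at 4.50 and 2.72 CPM in WT and at 1.53 and 1.90 CPM in CtslΔTEC cells (-0.99 ± 0.27, adjusted p = 0.036), the opposite order to that before stimulation. Without WT mouse 5 the difference was -0.66 and without CtslΔTEC mouse 6 it was -0.86, and neither passed, and with protein-coding transcripts alone it was -2.70. Gbp7 (-0.71 ± 0.21) and Gbp2 (-0.68 ± 0.20) were also lower. Gbp7 did not pass without WT mouse 5 (-0.57) or CtslΔTEC mouse 7 (-0.54), and Gbp2 did not pass without any of the 4 mice (-0.63 to -0.73). The summed guanylate-binding proteins differed by -0.23 ± 0.11 and did not pass (adjusted p = 0.23).

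Outside these families 6 more members were lower. Dtx3l, a ubiquitin ligase that works with Parp9, stood at 21.0 and 18.6 CPM against 12 and 13 CPM (-0.65 ± 0.14, adjusted p = 0.0081). Oas3 (-1.09 ± 0.34), the ISG15 ligase Herc6 (-0.62 ± 0.20), the Z-nucleic acid sensor Zbp1 (-0.59 ± 0.19), Irf9 (-0.40 ± 0.13) and Sp100 (-0.33 ± 0.11) passed with adjusted p between 0.065 and 0.076. Leaving out a mouse ended each of these calls: Herc6 without WT mouse 5 (-0.47) or CtslΔTEC mouse 7 (-0.37), Zbp1 without WT mouse 6 (-0.30) or CtslΔTEC mouse 6 (-0.46), and Irf9 without any of the 4 (-0.35 to -0.46). Oas3 did not pass without WT mouse 6 (-0.40), CtslΔTEC mouse 6 (-1.04) or CtslΔTEC mouse 7 (-1.17), nor Sp100 without WT mouse 5 (-0.30), CtslΔTEC mouse 6 (-0.34) or CtslΔTEC mouse 7 (-0.33).

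Samd9l, a restriction factor against poxviruses, was the member that was higher. It stood at 28.6 and 35.3 CPM in stimulated WT and at 50.6 and 47.2 CPM in stimulated CtslΔTEC cells (0.60 ± 0.15, adjusted p = 0.024), and did not pass without WT mouse 5 (0.46) or CtslΔTEC mouse 6 (0.55). Isg15 stood at 1.19 and 0.660 CPM against 1.35 and 1.96 CPM and did not pass (1.04 ± 0.46, adjusted p = 0.19). Stat2, Irf7, Ifih1 and Eif2ak2 differed by -0.01 ± 0.14, -0.23 ± 0.31, 0.01 ± 0.22 and 0.08 ± 0.19. The SE over the members reached 2.58, for Oas1a, and differences within such errors were not detectable.

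**Figure D5:**
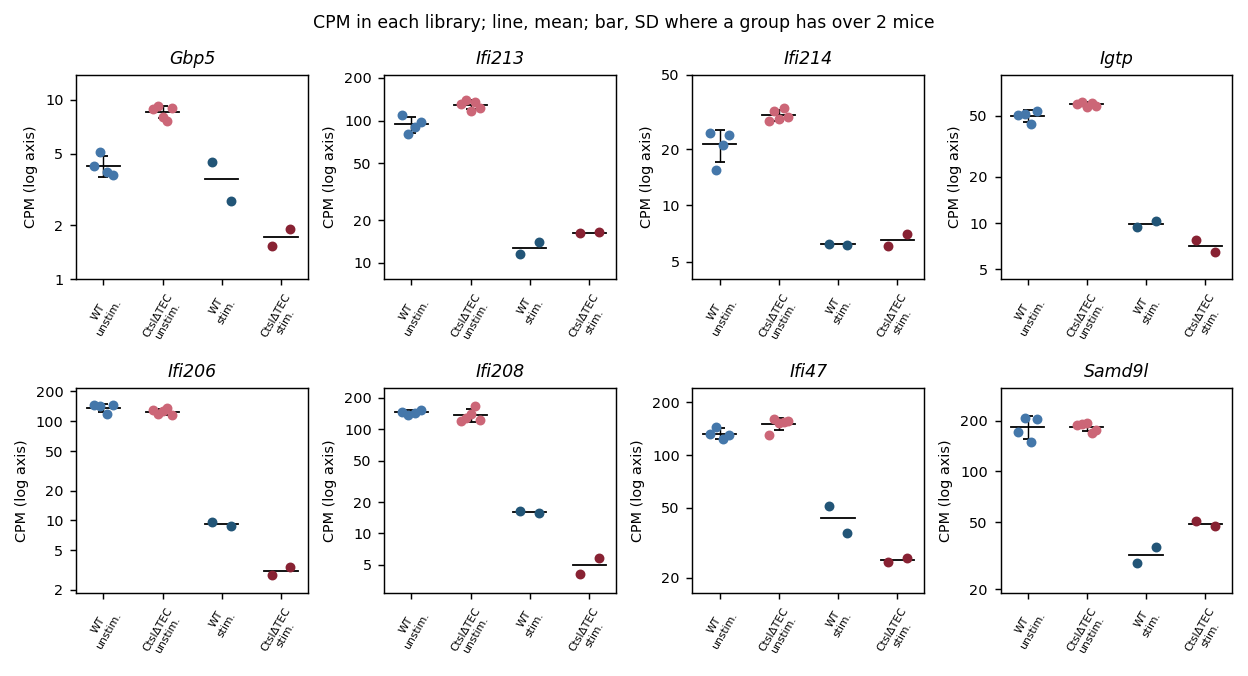
CPM of 8 members in each library on log axes, with the group mean as a line and the SD as a bar for the groups of 4 and 5 mice. Gbp5 is higher in CtslΔTEC than in WT mice before stimulation and lower after it, while Ifi206 and Ifi208 overlap before and separate after, at 8.74 to 9.53 against 2.80 to 3.41 CPM for Ifi206.

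The interaction of genotype and stimulation tested directly whether the fall differed. It passed for 12 members, 21.8% of the 55 against 6.01% of all genes (1.13% higher and 4.88% lower), 11 with a larger fall in CtslΔTEC cells and 1, Samd9l, with a smaller fall. These are the values of the stimulated and unstimulated comparisons combined, so they are not separate evidence. Gbp5, at -1.98 ± 0.31 (log2, adjusted p = 0.0049), was the largest of those that passed, and reached -3.97 with protein-coding transcripts alone. It changed by -0.32 ± 0.22 in WT, which did not pass, and by -2.30 ± 0.23 in CtslΔTEC cells. Ifi208 (-1.58 ± 0.21), Ifi206 (-1.39 ± 0.19) and Ifi47 (-0.96 ± 0.18) had adjusted p of 0.0030, 0.0030 and 0.014. Gbp5 and these 3 genes passed in every fit that left out 1 mouse and in all 24 alternatives.

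The other 8 were Ifi209 (-0.98 ± 0.24), Gbp7 (-0.96 ± 0.24), Gbp2 (-0.78 ± 0.22), Herc6 (-0.76 ± 0.23), Igtp (-0.74 ± 0.15), Dtx3l (-0.56 ± 0.16), Gbp8 (-0.54 ± 0.15) and Samd9l (0.61 ± 0.18), and each missed the threshold without at least 1 mouse. Without the mouse that ended it, Ifi209 stood at -0.80 (WT mouse 5) and -0.72 (CtslΔTEC mouse 6), Gbp7 at -0.82 (WT mouse 5) and -0.78 (CtslΔTEC mouse 7), and Igtp at -0.61 (CtslΔTEC mouse 7). Gbp8 missed it without CtslΔTEC mouse 2, 3 or 6 or WT mouse 5 (-0.42 to -0.49). Gbp2 (-0.65 to -0.83, 8 of 13 mice), Herc6 (-0.52 to -0.79, 10 mice), Dtx3l (-0.48 to -0.63, 9 mice) and Samd9l (0.47 to 0.65, 7 mice) were the least stable. The count was 5 without WT mouse 5, 7 without CtslΔTEC mouse 6 and 6 without CtslΔTEC mouse 7, when 2.26%, 2.23% and 4.09% of all genes passed. The Gbp8 interaction turned to 1.01 when protein-coding transcripts alone were summed. Summed immunity-related GTPases gave -0.73 ± 0.15 (adjusted p = 0.019), and the sums of the PYHIN, guanylate-binding and OAS families did not pass.

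The upstream genes were followed in lists of ligands, receptors, kinases and STATs, other IRFs, genes that lead to interferon production and brakes. Of 20 type I and type III interferon genes, 14 were at 0 counts in all 13 libraries and none exceeded 0.222 CPM. Ifng was at 0 in all 9 unstimulated libraries and reached 0.397 and 1.01 CPM in stimulated WT and 0.271 and 0.506 CPM in stimulated CtslΔTEC cells. By pooled counts against a floor of 3 over the group, that was at least 36.6-fold and 23.8-fold higher. Receptors were present, with Ifnar1 at 212 to 242 CPM in unstimulated WT and at 183 to 195 CPM in unstimulated CtslΔTEC mice. Ifnar1 was lower in CtslΔTEC cells without overlap (-0.25 ± 0.06, adjusted p = 0.021) and also after stimulation (-0.33 ± 0.10, adjusted p = 0.065), where it did not pass without WT mouse 5 (-0.28) or CtslΔTEC mouse 7 (-0.21). The unstimulated Ifnar1 difference did not pass in 3 of 24 alternatives, among them the fit with the Y-linked covariate. Ifnar2 and Ifngr1 did not differ past the threshold between genotypes.

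Between unstimulated genotypes 4 upstream genes were higher and 5 lower out of 44 tested, where 6.42% of all genes were higher and 8.36% lower. Socs3, a brake on JAK signalling, stood at 15.8 to 19.7 CPM in WT and 48.1 to 72.9 CPM in CtslΔTEC mice (1.88 ± 0.12, adjusted p = 4.0e-06). Tlr7, an endosomal RNA sensor, stood at 9.93 to 15.2 CPM against 4.34 to 6.57 CPM (-1.20 ± 0.16, adjusted p = 0.00044), and both genes passed in all 24 alternatives. The DNA exonuclease gene Trex1 (0.62 ± 0.16) and Stat5b (0.20 ± 0.06) were among the higher genes, and Irf4 (-0.96 ± 0.22), Mavs (-0.28 ± 0.08) and Traf3 (-0.19 ± 0.06) were lower. Stat5b did not pass without WT mouse 2 (0.19), Mavs without WT mouse 2 (-0.20) or CtslΔTEC mouse 4 (-0.26), and Traf3 without any mouse but CtslΔTEC mouse 1 (-0.15 to -0.20). Jak1, Tyk2, Irf1 and Socs1 did not pass. With the Y-linked covariate Socs3 and Tlr7 were the only 2 upstream genes that passed, so Ifnar1, Trex1, Stat5b, Irf4, Mavs and Traf3 did not.

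After stimulation 4 of 45 upstream genes were higher and 9 lower in CtslΔTEC cells, where 2.77% of all genes were higher and 10.6% lower. Tlr7 stood at 4.77 and 3.49 CPM in WT and at 0.451 and 0.569 CPM in CtslΔTEC cells (-2.94 ± 0.36, and -0.33 without passing by limma on TPM), and Tmem173, which encodes STING, at 22.9 and 21.8 CPM against 13.5 and 8.92 CPM (-1.01 ± 0.17). Ikbke (-0.64 ± 0.12) and Ifngr2 (-0.59 ± 0.12) were lower too, as was Irf1 (-0.46 ± 0.16). Socs3 (1.76 ± 0.32), Irf8 (0.91 ± 0.15) and Stat6 (0.36 ± 0.11) were among the higher genes. Irf1 did not pass without WT mouse 5 (-0.37) or CtslΔTEC mouse 6 (-0.30), and Stat6 did not pass without the same mice (0.21 and 0.31). In the interaction 2 upstream genes were higher and 6 lower, against 1.13% and 4.88% of all genes. Among them were Irf8 (1.20 ± 0.20), Ptpn2 (0.47 ± 0.14), Tlr7 (-1.74 ± 0.40, but 0.63 by limma on TPM), Trex1 (-1.01 ± 0.31), Tmem173 (-0.84 ± 0.19) and Irf2bp2 (-0.74 ± 0.18). Of these 6, Irf8 passed whichever mouse was left out, whereas Trex1 missed the threshold in 19 and Ptpn2 in 15 of 24 alternatives, and 1 upstream gene passed without WT mouse 5 and 2 without CtslΔTEC mouse 6.

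In response to stimulation 17 upstream genes were higher and 20 lower in WT cells (32.9% and 34.8% of all genes), and 17 were higher and 21 lower in CtslΔTEC cells (32.9% and 38.2% of all genes). In WT and CtslΔTEC cells Irf1 changed by -2.57 and -3.01 on the log2 scale, Jak1 by -1.25 and -1.65 and Ddx58, which encodes RIG-I, by -2.42 and -2.72. Ifngr1 (-1.18 ± 0.27 and -1.89 ± 0.27), Ifnar1 (-0.33 and -0.41) and Ifnar2 (-0.44 and -0.59) also fell, and Tyk2 (0.09 and -0.07) did not pass. Over the alternatives the Ifngr1 change in WT cells ranged from -1.97 to -0.63.

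Socs1, which binds and blocks JAKs, stood at 7.54 to 14.1 CPM before and at 104 and 151 CPM after stimulation of WT cells (3.74 ± 0.25), and rose by 3.31 ± 0.23 in CtslΔTEC cells. Socs3 changed by -3.74 and -3.86. Irf4 (4.92 and 5.47) and Irf8 (4.41 and 5.61), Jak2 (2.84 and 2.54) and Stat5a (2.49 and 2.20) rose in WT and CtslΔTEC cells.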

How the data were processed

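RNA of sorted cells was sequenced from 13 mice. The labels call it polyadenylated, the methods describe ribosomal RNA depletion, and which holds is not settled here. Per the submitters' notes the authors used kallisto 0.48, with Ensembl 106 transcripts per the methods, and deposited estimated counts, not normalized, and TPM per transcript. Deposited effective lengths served an alternative fit. Here transcripts were paired with genes through GENCODE M21 (GRCm38), which gives the gene coordinates: 116397 of 117497 paired, and the rest held at most 0.461% of a library. Estimated counts were summed per gene and rounded. Groups and mouse numbers came from the labels. File dates are those in the names of the deposited files, and what they date is not given in the sources used here.

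Genes kept by filterByExpr were tested in R 4.3.3 with edgeR 4.0.16 (TMM, quasi-likelihood, Benjamini-Hochberg over all genes, adjusted p under 0.1): the unstimulated comparison over 9 libraries, all others in a 4-group model of 13. In leave-one-out fits a lone mouse was assumed to vary like the other groups. CPM are TMM-scaled and TPM served only for levels between genes. The fits were tested on simulated counts with the same spread for all genes and changes only in well-counted ones. Members with few counts were not covered by that check. Alternatives included DESeq2 1.42.0 and limma 3.58.1 on log2(TPM + 1). The 55 members, the lists and the naming rule were chosen with earlier results of these data known. Genes named were called members whose average log2 CPM reached 1, up to 12 per direction, fixed representatives of each role, and up to 4 upstream genes per direction beside fixed ones; others were chosen after their values were seen. Some listed upstream genes are not reported here. A count of 0 allows up to 3 counts, and intervals (95%) cover counting error only. Libraries were said to be separate mice, so p-values measure the spread between mice. In the 4-group model this spread was estimated over all groups. Tests between stimulated groups therefore rest largely on the spread among unstimulated mice.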

Additional observations from a re-analysis of the deposited data

Results flagged for a closer look

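Within the unstimulated groups, 84 sets of values (42 named members in 2 groups) were tested for a mouse far from the others with Dixon's criterion, and 7 stood out, where chance alone gives about 4.2 (1 in 20). In WT mouse 3, Ifi206 was at 118 CPM against 141 to 145 in the other WT mice, and Ifih1 at 17.6 CPM against 22.8 to 23.8. In WT mouse 4, Isg20 was at 10.7 CPM against 6.49 to 6.91. In CtslΔTEC mouse 1, Ifi209 was at 191 CPM against 243 to 261 and Ifi47 at 130 CPM against 153 to 161. In CtslΔTEC mouse 3, Irf9 was at 74.3 CPM against 92.1 to 96.7 and Mx1 at 0.856 CPM against 1.42 to 1.57.

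The genotype effect differed between stimulated and unstimulated cells, by the interaction test, for 12 members. Its size on the log2 scale was -1.98 for Gbp5, -1.58 for Ifi208, -1.39 for Ifi206, -0.98 for Ifi209, -0.96 for Ifi47, -0.96 for Gbp7, -0.78 for Gbp2, -0.76 for Herc6, -0.74 for Igtp, -0.56 for Dtx3l, -0.54 for Gbp8 and 0.61 for Samd9l. Stimulation was confounded with culture and with file date.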

How the results depend on the processing

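The 7 members called between unstimulated genotypes became 3 with Y-linked transcripts as a covariate, and 5 to 11 when 1 mouse was left out (11 without CtslΔTEC mouse 1). With a replicate block for mouse number, 5 members and 4 upstream genes passed, and 7.99% of all genes. Correlations of same-numbered mice were -0.155, 0.347, -0.0974 and -0.138, and the labels do not say whether equal numbers mark paired mice. No paired analysis was possible for the other comparisons because their groups share fewer than 2 numbers. The 9 upstream genes became 2 with the Y-linked covariate. At an adjusted p under 0.05, 9.04% of all genes passed between stimulated genotypes and 3.31% in the interaction. In stimulated cells, the 15 members became 9 at an adjusted p under 0.05, 6 with the 4 stimulated libraries alone and 8 to 10 without 1 mouse, and the 13 upstream genes became 8 with those libraries alone and 8 to 14 without 1 mouse (8 without WT mouse 5). For the interaction, 12 members became 7 at an adjusted p under 0.05 and 5 to 12 without 1 mouse, and 8 upstream genes became 4 with a transcript length offset, 5 after thinning to the smallest total and 1 to 9 without 1 mouse (1 without WT mouse 5 and 2 without CtslΔTEC mouse 6). Summing protein-coding transcripts alone reversed the Gbp8 interaction (1.01) and the Mx1 response in CtslΔTEC cells (-1.47), and limma on TPM reversed the Tlr7 interaction (0.63); the causes were not tested. In response to stimulation 50 to 52 members passed in WT and 50 to 51 in CtslΔTEC cells when 1 mouse was left out, of which 50 to 51 and 49 to 51 were among the 51 called with all mice. Thinned to the smallest total, 12 of the 52 members then tested passed between stimulated genotypes, and 14.1% of all genes.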
